A study of Homo sapiens with 10 samples.

Results

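The pregnancy-specific glycoprotein (PSG) genes are described here in SW480, a human colorectal cancer cell line, after sorting into cells with and without the surface receptor ROBO1. The members are the 10 genes whose symbols are PSG1 to PSG9 and PSG11, of 26485 genes listed per library. They were selected on their read counts, because these were already known to be lower in the ROBO1pos libraries, so their differences between the populations are given as a description and support nothing by themselves. Polyadenylated RNA was sequenced from 5 ROBO1pos libraries, which the labels call SW480-CBC, and 5 ROBO1neg libraries, called SW480-RSC. All cells were of this 1 line and wild type, with no treatment stated, and were sorted by flow cytometry with the ROBO1 antibody clone MAB7118. The labels do not say whether replicates were separate cultures, so the spread between them may be technical.

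PSGs are secreted glycoproteins of the immunoglobulin superfamily and form, with the CEACAM proteins, the carcinoembryonic antigen family. The syncytiotrophoblast of the placenta makes them in large amounts during pregnancy, and they are known to act on immune cells, on the endothelium and on latent TGF-beta. Among the members, PSG9 has been reported in colorectal tumours. The genes lie side by side and arose by recent duplication, which makes their transcripts hard to tell apart.

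All 10 members are on the minus strand of chromosome 19, between 42721642 and 43269530 (RefSeq, GRCh38.p14), a span of 548 kb. From low to high coordinates their order is PSG3, PSG8, PSG1, PSG6, PSG7, PSG11, PSG2, PSG5, PSG4 and PSG9. In the GENCODE v29 annotation the longest coding sequences of any pair were identical at 89.4% to 94.8% of aligned bases over 45 pairs, with a median of 92.9%. Against CEACAM1, a membrane-bound relative, the members were identical at 72.4% to 74.8%.

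Promoter sequence from RefSeq was found for 3 of the 10 members, and it is shown because these genes span the range of levels reported below: PSG5 was the second highest member, PSG4 was low and PSG3 was nearly silent. Each line gives the 250 bases before the annotated start, 5′ to 3′, with capitals for a GC box (GGGCGG or its reverse CCGCCC, a motif of SP1) or a CACCC box (CACCC or GGGTG, a motif of Kruppel-like factors).
PSG5 (chr19:43186537-43186786, minus strand): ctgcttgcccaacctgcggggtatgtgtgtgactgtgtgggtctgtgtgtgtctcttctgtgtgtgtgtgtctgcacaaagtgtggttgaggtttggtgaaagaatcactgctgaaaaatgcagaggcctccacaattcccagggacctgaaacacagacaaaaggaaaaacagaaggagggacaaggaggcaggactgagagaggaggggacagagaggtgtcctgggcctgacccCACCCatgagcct
PSG4 (chr19:43205639-43205888, minus strand): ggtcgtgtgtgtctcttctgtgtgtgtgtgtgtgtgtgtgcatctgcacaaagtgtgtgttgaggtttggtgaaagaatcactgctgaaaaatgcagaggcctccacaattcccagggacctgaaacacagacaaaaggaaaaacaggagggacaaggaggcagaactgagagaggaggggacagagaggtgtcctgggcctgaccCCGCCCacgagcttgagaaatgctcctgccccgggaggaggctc
PSG3 (chr19:42740482-42740731, minus strand): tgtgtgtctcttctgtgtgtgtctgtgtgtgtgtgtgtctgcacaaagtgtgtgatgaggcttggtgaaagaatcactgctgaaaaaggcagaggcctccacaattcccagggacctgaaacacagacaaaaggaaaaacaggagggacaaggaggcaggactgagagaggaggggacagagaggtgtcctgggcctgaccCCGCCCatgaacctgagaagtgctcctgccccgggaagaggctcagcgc
Where they align, the windows were 98.1% identical between PSG5 and PSG4, 96.3% between PSG3 and PSG5 and 95.1% between PSG3 and PSG4. PSG4 and PSG3 each held 1 GC box, 44 and 49 bases before the start, and PSG5 held 1 CACCC box 13 bases before its own. The last 4 letters of these matches, GCCC in PSG4 and PSG3 and ACCC in PSG5, follow a run of 43 bases that is the same in all 3 genes. The matches are thus 1 shared site that differs by 1 base, and each distance is counted to the gene's own annotated start. By either strand, a GC box was found in 42.6% and a CACCC box in 54.7% of 35116 human promoter windows of this length, so each match is a common one. No TATAAA or TTTATA was present in the 3 windows, and 10.7% of all windows held one.

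Gene counts summed to 24429134 to 26629416 in the ROBO1pos libraries and to 23228686 to 29539100 in the ROBO1neg libraries. Levels are given as CPM, the count of a gene per 1e6 counts of its library, scaled by the trimmed mean of M values. ROBO1 was at 429 ± 26.6 CPM in ROBO1pos and 7.25 ± 1.47 CPM in ROBO1neg (SD, n = 5 each), which checks the sort labels. Of 12 markers of colorectal epithelium, the labelled cell type, 11 were tested, and they summed to 5780 to 7039 CPM in ROBO1pos and 7977 to 10490 CPM in ROBO1neg. Of these, 5 were called higher in ROBO1pos and 4 lower, beside 41.6% and 40.4% of all tested genes. KRT18 and KRT8 were the most abundant and lower in ROBO1pos (log2 fold changes -0.81 and -0.79), whereas EPCAM (1.17), VIL1 (4.18), CDX1 (4.36) and CDH17 (5.72) were higher. KRT20 had 0 counts in every library. Reads aligned to several places were 24.6% ± 0.875 of reads listed in ROBO1pos and 21.2% ± 0.398 in ROBO1neg, which differed by a two-sided exact permutation test (p = 0.00794, the smallest possible with 5 against 5). Such reads are not in the gene counts, so a part of the PSG signal may be missing from both populations, and the size of that part was not tested.

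Together the 10 members summed to 3.84 ± 1.04 CPM in ROBO1pos, against 368 ± 149.5 CPM in ROBO1neg (SD, n = 5 each). The summed level by library was 5.22, 4.48, 3.60, 3.39 and 2.51 CPM in ROBO1pos, against 544, 517, 274, 233 and 272 CPM in ROBO1neg. The populations did not overlap: the lowest ROBO1neg library lay far above the highest ROBO1pos library. In bulk RNA, fewer cells with PSG transcripts and less PSG RNA per cell cannot be told apart. Expressed as a log2 ratio of means, ROBO1pos over ROBO1neg, the difference was -6.58. The family kept 1.04% of its ROBO1neg level in ROBO1pos, while ROBO1 itself kept 1.69% of its ROBO1pos level in ROBO1neg. Residual cells of the other population in either gate were not tested as a source of these remainders.

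By edgeR's quasi-likelihood test, 9 of the 10 members passed the filter on low counts and those 9 were called lower in ROBO1pos at an adjusted p under 0.05. Of all 14932 genes tested, 40.4% were called lower in ROBO1pos and 41.6% higher. Nothing is read from the members' count, because the contrast chose them and because a gene silent in one population passes the filter only through the other. The libraries of the populations did not overlap for these 9 genes, as for 35.7% of all tested genes on the lower side and 36.1% on the higher side. Their log2 fold changes, ROBO1pos minus ROBO1neg, were all -5 or lower, a size that 1.79% of all tested genes reached.

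PSG1, known to bind and activate latent TGF-beta and to bind integrin alpha5beta1, was the highest member. It was at 3.44, 3.07, 2.48, 2.06 and 1.81 CPM in ROBO1pos, against 221, 214, 117, 103 and 120 CPM in ROBO1neg. Every ROBO1neg library lay above every ROBO1pos library, and 2 ROBO1neg libraries, replicates 1 and 2, lay above the other 3. The log2 fold change was -5.90 (SE 0.28). In ROBO1neg the mean of PSG1 was at or above that of 90.4% of all tested genes.

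PSG5, whose product also belongs to the secreted glycoproteins of the syncytiotrophoblast, was the second highest member. It was at 0.851, 0.741, 0.581, 0.525 and 0.246 CPM in ROBO1pos, against 217, 187, 105, 84.4 and 98.9 CPM in ROBO1neg. The same ROBO1neg libraries were the high ones. Its log2 fold change of -7.85 (SE 0.39) was number 13 from the lowest of all tested genes, and it kept 0.425% of its ROBO1neg level in ROBO1pos. This fitted value was the lowest among the members, but PSG4 kept less (0.335%), and PSG4 and PSG9 lay lower when 1 ROBO1pos library was left out.

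PSG11, reported to induce cytokines such as interleukin 10 in monocytes, came next. Its levels were 0.464, 0.370, 0.465, 0.687 and 0.370 CPM in ROBO1pos, against 59.4, 65.6, 34.4, 30.6 and 31.0 CPM in ROBO1neg. The log2 fold change was -6.54 (SE 0.33). PSG11 kept 1.07% of its ROBO1neg level in ROBO1pos and PSG1 kept 1.66%, both above the share of PSG5.

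PSG8 followed, with 0.193, 0.0741, 0.0387, 0.0404 and 0.0411 CPM in ROBO1pos, against 25.7, 21.1, 7.94, 7.16 and 7.75 CPM in ROBO1neg. Its ROBO1pos values rest on 10 counts in all, 5 of them in replicate 1. The log2 fold change was -7.38 (SE 0.63), and -8.01 without ROBO1pos replicate 1.

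**Figure D1:**
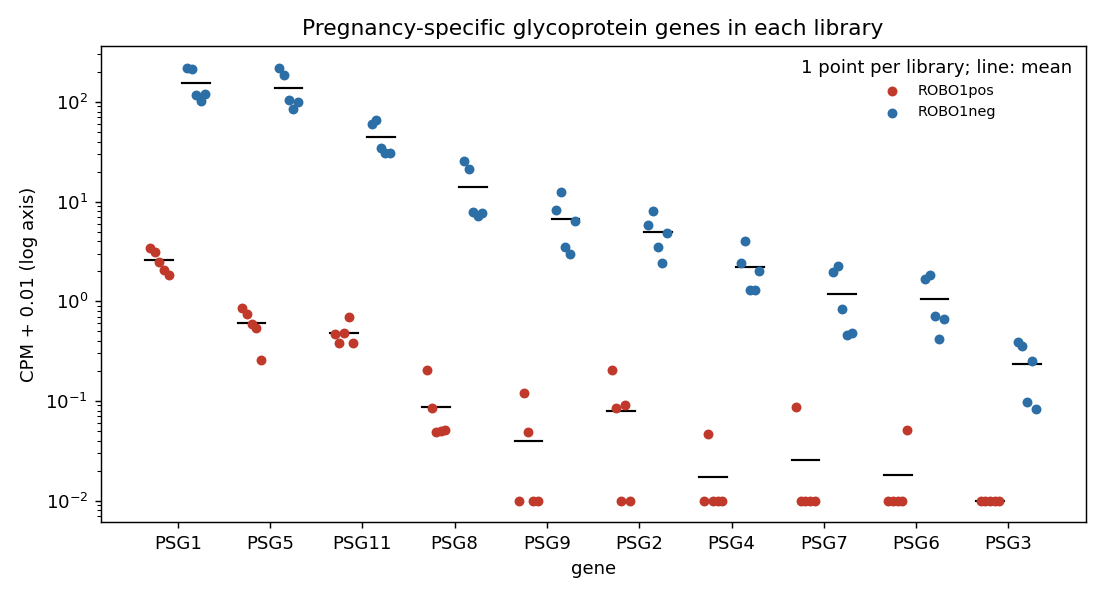
CPM of each PSG gene in each library, plotted as CPM + 0.01 on a log axis, with ROBO1pos in red on the left and ROBO1neg in blue on the right of each gene. Each point is 1 library and each line a mean of 5. In ROBO1neg the means run from 155 CPM for PSG1 to 0.225 CPM for PSG3, and the populations do not overlap for any gene shown.

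PSG9, the member with reports in colorectal tumours, averaged 0.0300 ± 0.0484 CPM in ROBO1pos and 6.71 ± 3.92 CPM in ROBO1neg, and rested on 4 counts in ROBO1pos against 828 in ROBO1neg. Its log2 fold change was -7.53 (SE 0.68), or -8.82 without ROBO1pos replicate 2. PSG2 averaged 0.0696 ± 0.0793 CPM in ROBO1pos and 4.92 ± 2.14 CPM in ROBO1neg. Its log2 fold change was -6.03 (SE 0.52), or -6.80 without ROBO1pos replicate 1. Both values move by over 1.5 times with 1 library, and PSG2 rests on 9 counts in ROBO1pos.

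The remaining members had at most 2 counts over the ROBO1pos libraries. For PSG4, 1 count in ROBO1pos stood against 274 in ROBO1neg. The summed level was 276 times higher in ROBO1neg, with a 95% exact binomial interval of 49.1 to 10937. PSG7 had 2 counts in ROBO1pos and 143 in ROBO1neg, a ratio of 72.0 (19.6 to 600.2). PSG6, reported like PSG11 to induce monocyte cytokines, had 1 count in ROBO1pos and 127 in ROBO1neg, a ratio of 128 (22.5 to 5090). The intervals cover counting error only, and the wide ones show that the sizes of these ratios are poorly fixed. The fitted log2 fold changes of -7.43 for PSG4, -5.82 for PSG7 and -6.33 for PSG6 depend on the prior count. Without ROBO1pos replicate 2 that of PSG4 was -8.80, without replicate 1 that of PSG7 was -7.89, and without replicate 5 that of PSG6 was -7.72.

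PSG3 did not pass the filter and was not tested. It had 0 counts in every ROBO1pos library, against 9, 8, 2, 7 and 2 counts in the ROBO1neg libraries. Against the limit of 3 counts over the ROBO1pos libraries, PSG3 was at least 9.40-fold higher in ROBO1neg. PSG10P, a pseudogene in the same cluster and not a member, was likewise untested, with 6 counts in ROBO1pos and 97 in ROBO1neg. Of its ROBO1neg counts, 38 and 22 came from replicates 2 and 1. The noncoding entry LOC284344, between PSG4 and PSG9, had 0 counts in ROBO1pos and 30 in ROBO1neg. No source used here states the strand setting of the counting, so overlapping transcripts cannot be separated.

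Levels of different members were compared per kilobase of GENCODE v29 coding-transcript exons in ROBO1neg, where the counts are high enough. PSG1 stood at 49.6 ± 18.4 CPM per kb, PSG5 at 38.5 ± 16.6, PSG11 at 23.0 ± 8.81 and PSG8 at 6.14 ± 3.88 (SD, n = 5). PSG2 followed at 2.54 ± 1.10 CPM per kb and PSG9 at 1.95 ± 1.14. PSG4 was at 0.718 ± 0.368 CPM per kb, PSG7 at 0.406 ± 0.291, PSG6 at 0.277 ± 0.170 and PSG3 at 0.115 ± 0.0728. In this order PSG8 lay below PSG11 with no overlap of libraries (3.16 to 11.3 against 15.9 to 34.1 CPM per kb), and the ranges of the other neighbours overlapped. Within a library the order was steadier than those ranges: the first 7 places were the same in all 5 ROBO1neg libraries, and only PSG7, PSG6 and PSG3 changed places.

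Sequence shared between members bears on these levels. Of all 100-base windows of a member's coding transcripts, 84.9% (PSG8) to 96.0% (PSG6) were found in no transcript of another PSG or CEACAM gene. With 50-base windows the share was 61.3% for PSG8 and 82.5% for PSG7, the lowest and the highest. No source used here states the read length. When the ROBO1neg CPM was divided by the number of 100-base windows unique to each gene, the ranking of the 10 members was the same as per kilobase.

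Members held different shares of the family count. PSG1 made up 67.2% ± 4.26 of family counts in ROBO1pos and 42.6% ± 1.58 in ROBO1neg (SD, n = 5 each). PSG5 made up 14.9% ± 2.83 in ROBO1pos and 37.4% ± 1.66 in ROBO1neg. The share of PSG11 was alike in mean, 13.0% ± 4.87 in ROBO1pos and 12.1% ± 0.932 in ROBO1neg. For PSG1 and PSG5 the libraries of the populations did not overlap, whereas for PSG11 they did. Shares of lower members varied more within ROBO1neg, PSG8 between 2.85% and 4.73% and PSG9 between 1.27% and 2.43%.

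The ratio of PSG1 to PSG5 counts was 4.05, 4.15, 4.27, 3.92 and 7.33 in ROBO1pos, against 1.02, 1.15, 1.12, 1.22 and 1.21 in ROBO1neg. All ROBO1pos libraries thus lay above all ROBO1neg libraries in this ratio. The ROBO1pos ratios rest on 6 to 22 PSG5 counts per library. Pooled over libraries, PSG5 was 15.4% of 494 family counts in ROBO1pos (95% exact binomial interval 12.3% to 18.9%) and 37.6% of 45484 in ROBO1neg (37.1% to 38.0%). These intervals cover counting error only. Since the contrast chose the members, the difference in make-up is a description as well.

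**Figure D2:**
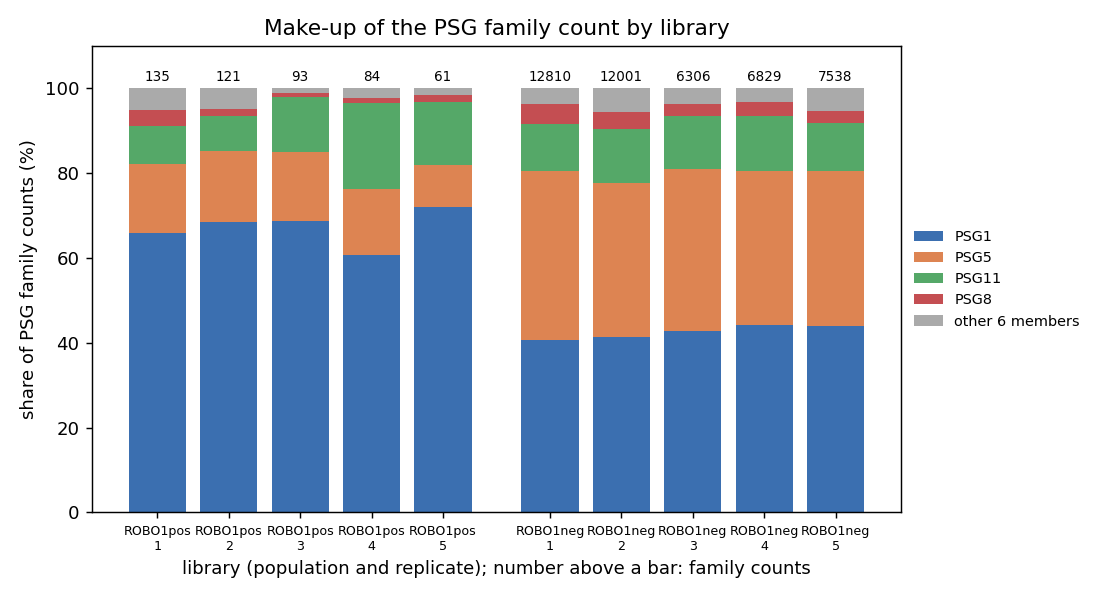
Share of the PSG family count held by PSG1, PSG5, PSG11, PSG8 and the other 6 members in each library, in percent, with the 5 ROBO1pos libraries on the left and the 5 ROBO1neg libraries on the right. Numbers above the bars are family counts. PSG1 fills 60.7% to 72.1% of each ROBO1pos bar and 40.6% to 44.2% of each ROBO1neg bar.

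Within ROBO1neg the members moved together between libraries. In all 10 members, PSG3 included, replicates 1 and 2 were above replicates 3 to 5, an arrangement seen in 11.6% of all tested genes. The relative spread (SD over mean) in ROBO1neg was 37.2% for PSG1, 38.3% for PSG11 and 43.0% for PSG5, and reached 71.7% for PSG7. In contrast, the PSG1 to PSG5 ratio varied little there, at 1.14 ± 0.0823 (SD, n = 5). In ROBO1pos the summed level was also highest in replicates 1 and 2 (5.22 and 4.48 CPM), as were PSG1 and PSG5. PSG8 was too, but replicate 2 rested on 2 counts, against 1 in each of replicates 3 to 5. PSG11 was highest in ROBO1pos replicate 4 (0.687 CPM). PSG2 and PSG9, with 9 and 4 counts over ROBO1pos, did not have replicates 1 and 2 highest. No label separates replicates 1 and 2 from the others, and what the libraries have in common was not tested.

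The genes whose pattern over the 10 libraries was nearest to the summed PSG level were sought among 14923 other tested genes, by the root mean square difference of centred log2 CPM. They were CYR61 (0.37 on the log2 scale), MYEOV (0.38), DKK3 (0.39), PRSS33 (0.41) and SIGLEC6 (0.41). SIGLEC6, a sialic acid-binding receptor known from placental trophoblast, was at 0.155, 0.0741, 0.0775, 0 and 0.0411 CPM in ROBO1pos, against 15.5, 15.3, 5.21, 5.18 and 8.07 CPM in ROBO1neg. Like the PSGs, it was highest in replicates 1 and 2 of ROBO1neg. CYR61, which encodes a secreted matrix protein, was steadier in ROBO1neg, between 224 and 269.5 CPM, against 2.59 to 3.33 CPM in ROBO1pos. These genes were picked for likeness, which carries no test.

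The genes on both sides of the cluster were examined next, since PSGs share their neighbourhood with other genes. Of the 20 nearest tested genes on the low-coordinate side, 16 were called higher in ROBO1pos and 1 lower, with a median log2 fold change of 0.61. Of the 20 on the high-coordinate side, 7 were higher and 7 lower, with a median of -0.14. Over all tested genes the median was 0.02, with 41.6% called higher and 40.4% lower, and the counts on the high-coordinate side were near those shares. CEACAM1 was the gene called lower on the low-coordinate side, with 10.4 ± 1.82 CPM in ROBO1pos and 22.6 ± 3.80 CPM in ROBO1neg (edgeR log2 fold change -1.13, SE 0.13, adjusted p = 1.8e-06). LIPE, the hormone-sensitive lipase, was higher in ROBO1pos with 15.9 ± 1.67 CPM, against 9.22 ± 0.572 CPM in ROBO1neg, and its antisense entry LIPE-AS1 was higher too (log2 fold changes 0.78 and 1.11). Reads of this antisense pair cannot be told apart without the strand setting.

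On the high-coordinate side the 2 nearest tested genes encode proteins of the LY6/uPAR family. CD177, a surface protein of neutrophils, had 0 counts in every ROBO1pos library and 88 in ROBO1neg. It was at least 29.5-fold higher in ROBO1neg, against the limit of 3 counts over the ROBO1pos libraries. Its ROBO1neg levels were 1.02, 0.732, 0.434, 0.477 and 0.829 CPM. LYPD3 was at 0.923 ± 0.138 CPM in ROBO1pos and 6.18 ± 0.763 CPM in ROBO1neg (edgeR log2 fold change -2.74, SE 0.14, adjusted p = 3.3e-10). PHLDB3, the next gene, was not called, at -0.14 (SE 0.10, edgeR adjusted p = 0.221). It was called lower, at -0.24, without ROBO1pos replicate 1 (edgeR adjusted p = 0.0218). Untested genes near the cluster had almost no reads: CEACAM8 and TEX101 had 2 counts each, and CXCL17 had 7, over all 10 libraries.

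**Figure D3:**
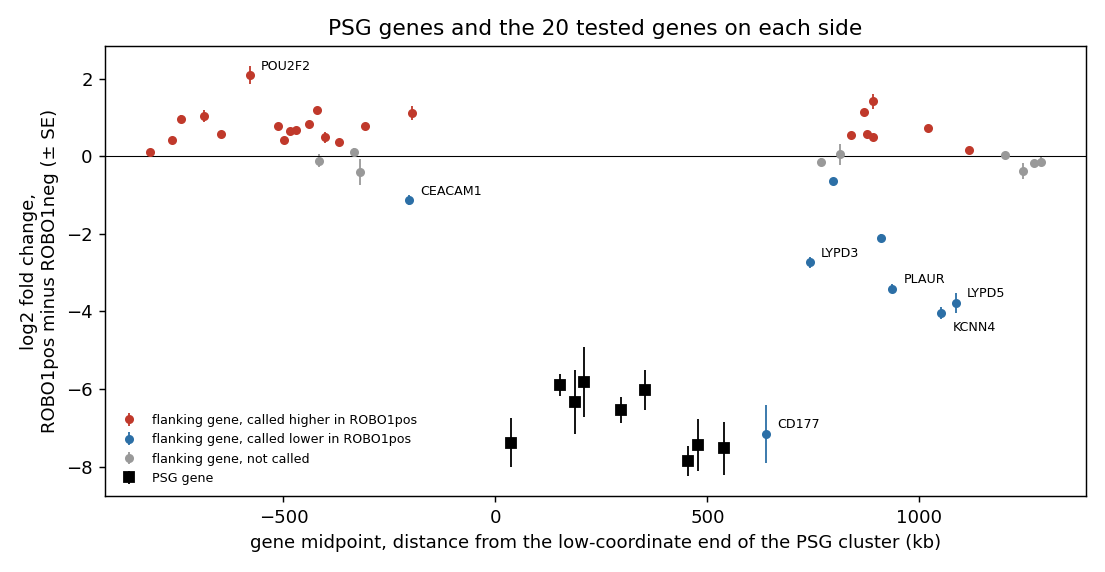
Log2 fold change, ROBO1pos minus ROBO1neg, with its SE, of the 9 tested PSG genes (black squares) and the 20 nearest tested genes on each side (circles, red called higher, blue called lower, grey not called), against the distance of a gene's midpoint from the low-coordinate end of the cluster in kb. The PSG genes lie between -7.85 and -5.82. CD177, with 0 counts in ROBO1pos, and PSG4, PSG6 and PSG7, with 1 or 2, have fitted values that depend on the prior count.

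The CEACAM relatives of the PSGs were mostly too low to test. Of 13 relatives listed, 4 had 0 counts in every library and only CEACAM1 and CEACAM19 were tested. CEACAM1 was lower in ROBO1pos, as given above. CEACAM19 was higher, with 15.3 ± 2.75 CPM in ROBO1pos and 3.90 ± 0.408 CPM in ROBO1neg (edgeR log2 fold change 1.98, SE 0.13, adjusted p = 4.0e-09). CEACAM5, the carcinoembryonic antigen used as a serum marker of colorectal cancer, had 1 count over all 10 libraries, and so had CEACAM6. At this depth such counts cannot be told from 0.

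Of 8 factors reported to act on PSG promoters, all tested, 6 were called lower in ROBO1pos, 1 higher and 1 was not called, with a median log2 fold change of -1.13. Among all tested genes 40.4% were called lower, with a median of 0.02, and this list, like those that follow, was chosen with earlier results of these data known. KLF4, a Kruppel-like factor, was at 2.32, 1.59, 2.63, 2.26 and 2.83 CPM in ROBO1pos, against 45.0, 31.3, 38.1, 38.5 and 31.0 CPM in ROBO1neg (edgeR log2 fold change -3.98, SE 0.14, adjusted p = 8.5e-12). The populations did not overlap, but replicates 1 and 2 of ROBO1neg held both the highest and one of the lower values, unlike the PSGs. KLF6, first isolated as a protein binding a PSG core promoter, was at 21.7 ± 1.12 CPM in ROBO1pos and 96.5 ± 13.6 CPM in ROBO1neg (edgeR log2 fold change -2.15, SE 0.09, adjusted p = 2.5e-11).

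RXRA and RARA, nuclear receptors that bind retinoids, had log2 fold changes of -1.83 and -1.59. Within ROBO1neg both had replicates 1 and 2 above replicates 3 to 5, like the PSGs and like 11.6% of all tested genes. The other factors of this list did not have that order. SP1 and SP3, which bind GC boxes, had smaller ones of -0.62 and -0.67. GABPA, the DNA-binding subunit of GABP, was higher in ROBO1pos at 0.24, and its partner GABPB1 was not called at -0.07. RNA levels of these factors do not measure their activity or their binding at PSG genes.

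Another list held proteins that PSGs are reported to bind or that take part in activation of TGF-beta. Of its 18 tested genes, 16 were called lower in ROBO1pos, 1 higher and 1 was not called, with a median log2 fold change of -1.18, where 40.4% of all tested genes were called lower and 41.6% higher. TGFB2, a TGF-beta ligand, was at 0.155, 0.296, 0.813, 0.323 and 0.411 CPM in ROBO1pos, against 29.5, 25.1, 39.7, 38.3 and 26.7 CPM in ROBO1neg (edgeR log2 fold change -6.30, SE 0.25, adjusted p = 1.9e-11). SDC4, a syndecan that carries heparan sulphate, was at 16.7 ± 0.986 CPM in ROBO1pos and 358 ± 115 CPM in ROBO1neg. ITGA5, the alpha subunit of the fibronectin receptor, was at 12.4 ± 1.14 CPM in ROBO1pos and 74.3 ± 3.84 CPM in ROBO1neg.

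The 2 other TGF-beta ligands differed less than TGFB2, with log2 fold changes of -0.55 for TGFB1 and -0.98 for TGFB3. CD9, the tetraspanin through which a mouse PSG is known to act, was at -1.19, and LGALS1, which encodes a galectin that binds PSG1, at -1.78. SDC1, the syndecan of epithelia, was not called at 0.01, with 111 CPM in each population. GALNT1, an enzyme that starts O-glycans, was higher in ROBO1pos at 0.55. Within ROBO1neg, SDC4 was lowest in replicates 1 and 2, where the PSGs were highest, with 257 and 228 CPM, against 462, 480 and 363 CPM in replicates 3, 4 and 5. ITGA5 and ITGAV of this list were also lowest in replicates 1 and 2. In contrast, GPC1, LTBP1, SDC1, SDC3 and ITGA2B were highest in those replicates, like the PSGs. The share of all tested genes that were lowest in replicates 1 and 2 was not counted.

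Other genes of the syncytiotrophoblast were mostly too low to test. Of 28 genes of hormones and of cell fusion in this list, 27 were listed and 10 had 0 counts in every library. The 4 tested genes included 3 called lower in ROBO1pos and 1 higher, with a median log2 fold change of -1.71. Shares over all tested genes were 40.4% lower and 41.6% higher, with a median of 0.02. CGA, the shared subunit of glycoprotein hormones, had 3 counts over all 10 libraries, the fusion gene ERVW-1 had 2, and GCM1, a factor that drives fusion, had 11. Of the genes for the beta subunit of chorionic gonadotropin, CGB7 had 3 counts in ROBO1pos and 59 in ROBO1neg, a ratio of 19.8 (95% exact binomial interval 6.45 to 98.8). CGB2 had 1 count in ROBO1pos and 33 in ROBO1neg, a ratio of 33.2 (5.56 to 1352). Their libraries did not overlap between the populations, but these genes are near-identical copies, so the split of reads among them is uncertain. HSD3B1, a steroid enzyme of the placenta, was at 0.0236 ± 0.0215 CPM in ROBO1pos and 2.10 ± 1.43 CPM in ROBO1neg. With 3 counts in ROBO1pos, its summed level was 93.3 times higher in ROBO1neg (95% exact binomial interval 31.6 to 455). KISS1, which encodes kisspeptin, and HSD17B1, an oestradiol enzyme, were lower in ROBO1pos with log2 fold changes of -2.50 and -0.92, that of KISS1 being -3.38 without ROBO1pos replicate 3. ERVMER34-1, an endogenous retroviral envelope gene, was higher in ROBO1pos with 219 CPM, against 111 CPM in ROBO1neg.

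Of 12 tested genes in a list of other placenta-enriched genes, 8 were called lower in ROBO1pos and 4 higher. Their median log2 fold change was -1.58, and 40.4% of all tested genes were called lower and 41.6% higher. A gene nearly silent in ROBO1pos passes the filter only through ROBO1neg, so neither this count nor that of the syncytiotrophoblast genes is read further. EBI3, a cytokine subunit made by trophoblast, had 2 counts in ROBO1pos and 257 in ROBO1neg, a ratio of 129 (95% exact binomial interval 35.5 to 1074). CAPN6, a calpain-like protein, was at 0.305 ± 0.122 CPM in ROBO1pos and 5.54 ± 0.666 CPM in ROBO1neg, and FLT1, a VEGF receptor, had a log2 fold change of -2.53. IGF2 (2.62), GPC3 (2.13) and LVRN (1.38) went the other way. Within ROBO1neg, HSD3B1 and EBI3 did not follow the PSGs: HSD3B1 was at 0.637, 0.689, 2.95, 3.92 and 2.31 CPM, and EBI3 at 0.934, 0.473, 3.12, 2.97 and 2.34 CPM, lowest in replicates 1 and 2. FLT1 was lowest in those replicates too. ALPP, another placenta-enriched gene, had the order of the PSGs, at 7.77, 6.41, 4.12, 3.58 and 5.84 CPM. The other tested genes of these lists did neither. The share of all tested genes that were lowest in replicates 1 and 2 was not counted.

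Of 14 tested transcription factors of the trophoblast, 4 were called lower in ROBO1pos, 7 higher and 3 were not called, with a median log2 fold change of 0.32. Among all tested genes 40.4% were called lower and 41.6% higher, so this split is given as a count only. GATA2 was at 5.35 ± 0.544 CPM in ROBO1pos and 90.1 ± 9.66 CPM in ROBO1neg (edgeR log2 fold change -4.07, SE 0.09, adjusted p = 9.6e-14). PPARG and TFAP2C were lower in ROBO1pos by smaller amounts, at -0.91 and -0.72. Within ROBO1neg, GATA2 and PPARG had replicates 1 and 2 above replicates 3 to 5, like the PSGs and like 11.6% of all tested genes. The other tested factors of this list did not. DLX3, a homeobox factor needed for the placenta in mice, was at 69.5 ± 11.6 CPM in ROBO1pos and 7.83 ± 1.01 CPM in ROBO1neg, and MSX2 (2.09) and EOMES (1.69) were also higher in ROBO1pos.

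**Figure D4:**
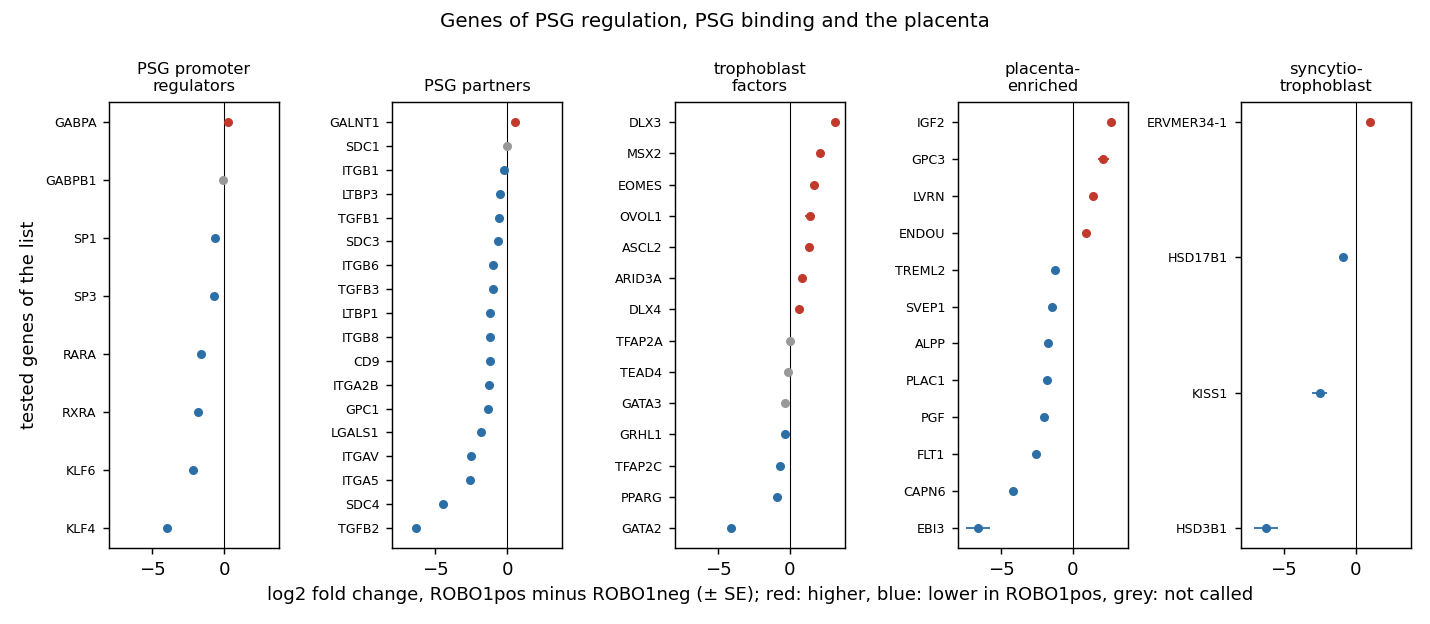
Log2 fold change, ROBO1pos minus ROBO1neg, with its SE, for the tested genes of 5 lists: PSG promoter regulators, PSG partners, trophoblast factors, other placenta-enriched genes and syncytiotrophoblast genes. Red genes were called higher and blue genes lower in ROBO1pos, and grey genes were not called. In the first pair of lists, 6 of 8 and 16 of 18 genes were called lower, and of the trophoblast factors 4 of 14. Lower calls made up 40.4% of all tested genes, and higher calls 41.6%.

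Markers of cell types other than epithelium were low and did not follow 1 direction. Summed over 7 fibroblast markers the level was 10.1 to 13.7 CPM in ROBO1pos and 14.0 to 22.5 CPM in ROBO1neg, with COL1A1 lower and LUM higher in ROBO1pos, and COL3A1 at 0 throughout. Summed over 7 immune markers it was 3.71 to 5.13 CPM in ROBO1pos and 4.25 to 5.60 CPM in ROBO1neg, mostly LYZ, CD14 and CD68, and PTPRC had 6 counts in all. Summed over 5 endothelial markers it was 0.503 to 0.889 CPM in ROBO1pos and 2.43 to 4.36 CPM in ROBO1neg, mostly VWF, and PECAM1 had 4 counts in all. The part of these markers in the PSG difference was not tested.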

How the data were processed

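RNA from sorted SW480 cells was made into libraries with a stranded kit for polyadenylated RNA, per the labels' protocols. The authors deposited 1 file of raw read counts per gene for each of 10 libraries, without normalisation. The submitters' processing notes name GRCh38, STAR 2.6.0c and DESeq2 1.24.0. The counting tool, its strand setting, the annotation and the read length are in none of the sources used here. Leaving aside 5 entries that name no gene, which entered no total and no test, genes held a mean of 58.7% of listed reads in ROBO1pos and 63.4% in ROBO1neg.

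Counts were fitted with edgeR 4.0.16 in R 4.3.3 (filterByExpr, TMM, quasi-likelihood test, group as the only term, Benjamini-Hochberg adjustment over 14932 genes). SEs come from the coefficient and its F statistic. CPM use TMM-scaled library sizes. Log2 CPM for the likeness search used a prior count of 2. The fit was also run on simulated data, with 200 genes changed and the same spread for every gene. Those changes and that spread were smaller than the members' own, so the run does not cover them. The members and lists were chosen with earlier results of these data known. Named genes are the members and ROBO1, up to 3 called genes per direction and list of at least 1 CPM (all genes of lists with 8 or fewer tested), the 2 highest markers per list, the 3 nearest tested genes per side and the 5 most similar genes. Others, such as TGFB1, TGFB3, CD9, LGALS1, SDC1, EPCAM, VIL1, CDX1, CDH17 and CD14, the untested genes and LOC284344, were named after their values were seen. So were ITGAV, GPC1, LTBP1, SDC3, ITGA2B and ALPP. No pair of libraries of 1 group was a duplicate: counts differed by 3.54 to 21.9 times the sampling variance. Alternatives were RLE, upper quartile and library size scaling, 2 other filters, DESeq2 1.42.0, limma-voom (limma 3.58.1), the replicate number as a block and each library left out.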

Additional observations from a re-analysis of the deposited data

Results flagged for a closer look

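Groups of 5 libraries were searched for a library far from the other 4, by the gap to its neighbour over the whole range (above 0.71). Of 122 sets of values examined, 10 had one. The cutoff flags about 5% by chance only for continuous values, so the number flagged is not compared with that share. For PSG4, PSG6, PSG7 and EBI3 all ROBO1pos counts, 1 or 2, lay in 1 library, which fixes the gap at the whole range. For 4 of the PSG genes the library that stood apart was the one with most of the few ROBO1pos reads: PSG4 in replicate 2 (0.0370 CPM, 1 count), PSG6 in replicate 5 (0.0411 CPM, 1 count), PSG7 in replicate 1 (0.0773 CPM, 2 counts) and PSG8 in replicate 1 (0.193 CPM, 5 counts). The ratio of PSG1 to PSG5 counts was 7.33 in ROBO1pos replicate 5, against 3.92 to 4.27 in the other ROBO1pos libraries. That library had 6 PSG5 counts.

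Among other genes, KISS1 stood apart in ROBO1neg replicate 5 at 1.66 CPM, against 0.512 to 0.737 CPM in the other ROBO1neg libraries. EBI3 did so in ROBO1pos replicate 4 at 0.0808 CPM, which is 2 counts. KRT18 was at 2738 CPM in ROBO1pos replicate 5, against 2139 to 2294 CPM in the others. LYZ was at 2.91 CPM in ROBO1pos replicate 4 and LYPD3 at 1.16 CPM in ROBO1pos replicate 1.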

How the results depend on the processing

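The 9 PSG genes tested stayed lower in ROBO1pos and called under every scaling, test and left-out library in which they passed the filter. The summed level, as a log2 ratio, ran from -6.72 to -6.40 over the fits without 1 library. With no filter beyond 1 count all 10 members were tested and called lower. With 5 CPM required in 5 libraries 4 were tested and called, because fewer genes pass. PSG6 was not tested without ROBO1neg replicate 5, which left 8. Filters moved some list counts through the number of genes tested. With no filter beyond 1 count, 7 syncytiotrophoblast genes were called lower, and 13 placenta-enriched genes lower and 7 higher. With the 5 CPM filter these counts were 0, 1 and 1, with the genes left untested. Of all genes tested, 32.5% were called lower and 33.2% higher with no filter, and 41.7% and 42.6% with the 5 CPM filter. PSG10P was called lower with no filter (1 gene) and in some fits without 1 library (0 to 1). LYZ lost its call with the replicate block (adjusted p = 0.055) and without ROBO1pos replicate 4 or ROBO1neg replicate 3, 4 or 5 (adjusted p from 0.053 to 0.104). The cause was not tested. EBI3 was at -8.67 without ROBO1pos replicate 4, and LUM at 7.26 without ROBO1neg replicate 2. With limma-voom, PSG4, PSG6, PSG7, HSD3B1, EBI3 and CD177 had log2 fold changes of -6.36, -5.17, -5.10, -5.52, -5.94 and -5.12.

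No label says what replicate numbers share. Deviations of same-numbered libraries correlated at 0.06 to 0.17 across genes, all positive but not all over 0.1, so the numbers were not taken as pairs. That 8 of 10 libraries correlated best with their own number is a hint of pairing from the data, not from the design. With the replicate block 6086 genes were lower and 6226 higher in ROBO1pos, against 6036 and 6214 without it, and the same 9 PSG genes were called. Depth limits PSG3, PSG4, PSG6 and PSG7 in ROBO1pos, which had 0 to 2 counts each.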

Other observations

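Farther from the PSG cluster on the high-coordinate side, more genes named after their values were seen were lower in ROBO1pos. PLAUR, the urokinase receptor and like CD177 and LYPD3 a member of the LY6/uPAR family, was at 2.91 ± 0.515 CPM in ROBO1pos and 31.1 ± 3.22 CPM in ROBO1neg (log2 fold change -3.42, SE 0.11). LYPD5, of the same family, was at 0.485 ± 0.0690 CPM in ROBO1pos and 6.70 ± 2.32 CPM in ROBO1neg (-3.78 on the log2 scale). KCNN4, a potassium channel gene between them, was at -4.03, and CADM4, an adhesion molecule, at -2.10. Other genes on this side were called higher in ROBO1pos. XRCC1, a DNA repair scaffold, was at 0.56 and IRGQ at 1.13, and both lie between LYPD3 and CADM4. SMG9, at 0.74, lies between PLAUR and KCNN4. PLAUR and LYPD5 did not share the order of the PSGs within ROBO1neg, since both were highest in replicate 5.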
